A study of Mus musculus with 12 samples.

Results

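The interaction of Dach1 loss and streptozotocin (STZ) was examined in mouse glomeruli, the filtering units of the kidney, over all 12 RNA-seq libraries of the study. It is the log2 fold change of knockout against control after STZ minus the same fold change at baseline, so a positive value means that knockout glomeruli stood higher against their controls after STZ than before it. The contrast was tested in the 13475 genes listed in both arms, of 16298 listed in either. The 4 groups were control and podocyte-specific Dach1 knockout mice without treatment at 10 weeks of age, and control and podocyte-specific Dach1 knockout mice injected intraperitoneally with STZ (daily dose 50 µg per g body weight, for 5 days) and sampled 10 days later. Each group held 3 different mice on the C57BL/6 background. The labels give neither the Cre driver of the deletion nor the age of the STZ mice, and the sample titles mark STZ controls as hetN and baseline controls as Ctrl, with no meaning given. Whole glomeruli also hold endothelial, mesangial and parietal cells with some tubule, so a change cannot be assigned to 1 cell type, and fewer cells of a type cannot be told apart from less RNA per cell.

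Dach1 encodes a nuclear cofactor that binds chromatin and mostly represses transcription, and it works with EYA proteins during organ development. Podocytes are the epithelial cells whose foot processes carry the slit diaphragm, and they lay down part of the glomerular basement membrane. STZ destroys the insulin-producing beta cells of the pancreas, and early diabetes raises filtration and alters matrix in the glomerulus. An interaction contrast asks whether losing the gene does the same thing in both states.

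Library totals ran from 22600000 to 24900000 estimated counts at baseline and from 66100000 to 78600000 after STZ. Depth, table filtering, the control titles (Ctrl or hetN) and any difference in age or handling follow the arm. They cannot be told apart from STZ itself. Each knockout effect is taken within an arm, but the interaction compares the effects of both arms, so it is not free of these differences. Read from Xist and Ddx3y, each baseline group held 2 females and 1 male, the STZ controls 3 males, and the STZ knockouts 1 female and 2 males. The median standard deviation of a gene's log2 CPM (counts scaled to a common library size with TMM factors) was 0.16 in baseline controls, 0.19 in baseline knockouts, 0.21 in STZ controls, against 0.17 in STZ knockouts.

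Dach1 itself fell in knockouts of both arms (adjusted p = 0.00516 at baseline and 0.00395 after STZ, edgeR). It stood at 162, 106 and 188 CPM in the baseline controls and at 47.2, 56.7 and 59.3 CPM in the baseline knockouts. After STZ it stood at 145, 175 and 183 CPM in controls and at 55.8, 65.9 and 67.0 CPM in knockouts. Knockout and control libraries did not overlap in either arm. The log2 fold change was -1.48 at baseline and -1.41 after STZ, an interaction of 0.07 (SE 0.27, adjusted p = 0.989 by edgeR's quasi-likelihood test with Benjamini-Hochberg adjustment over all genes tested).

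A single gene, Adamtsl1, passed the test of the interaction at an adjusted p under 0.05, which is 0.00742% of the genes tested. At an unadjusted p under 0.05 there were 366 genes with a positive interaction (2.72%) and 128 with a negative one (0.950%), together 494 genes or 3.67%, below the 5% that this threshold passes when no gene differs. Adamtsl1 encodes ADAMTS-like 1 (punctin), a secreted matrix glycoprotein related to the ADAMTS proteases but without their catalytic domain. The gene spans 85513852 to 86428390 of chromosome 4 in RefSeq's GRCm38.p6 annotation. Baseline controls had 5.63, 5.28 and 4.68 CPM and baseline knockouts 50.2, 48.3 and 56.4 CPM. STZ controls had 4.09, 4.23 and 4.92 CPM and STZ knockouts 116, 120 and 141 CPM. The knockout groups lay above the controls in both arms, and the STZ knockouts lay above the baseline knockouts with no overlap. The knockout effect was 3.31 (log2) at baseline and 4.83 after STZ, an interaction of 1.52 (SE 0.17, adjusted p = 0.044, edgeR). STZ changed it by 1.28 in knockouts (adjusted p = 0.00101, edgeR) and by -0.24 in controls (adjusted p = 0.406, edgeR). The call was lost when any 1 of the 12 libraries was left out, with log2 values of 1.43 to 1.59 and adjusted p of 0.0709 to 0.177 (edgeR).

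Parm1, a mucin-like membrane protein of the secretory pathway, had the next smallest p. Its baseline controls had 5.03, 4.63 and 4.06 CPM against 18.7, 26.0 and 20.4 CPM in knockouts. After STZ controls had 2.47, 4.64 and 2.51 CPM against 127, 87.7 and 118 CPM in knockouts. The STZ knockouts again stood above every other library. The knockout effect was 2.25 at baseline and 5.11 after STZ, an interaction of 2.86 (SE 0.36, adjusted p = 0.0578, edgeR), which did not pass. It passed in 4 of 23 alternatives, with edgeR's relative log expression factors (adjusted p = 0.049), DESeq2 (3.79e-10), thinning to the shallowest library (0.023) and without the second STZ control (0.00611). It did not pass in the other 19, among them voom (0.0535), the covariates for tubule (0.0653), sex (0.154) and podocyte markers (0.198), and 11 of the 12 fits without 1 library. The rest of the 19, which changed filters, rounding or blank handling, nearly repeated the main fit. The log2 value of Parm1 ran from 2.56 to 3.23 over the 23 alternatives.

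**Figure D1:**
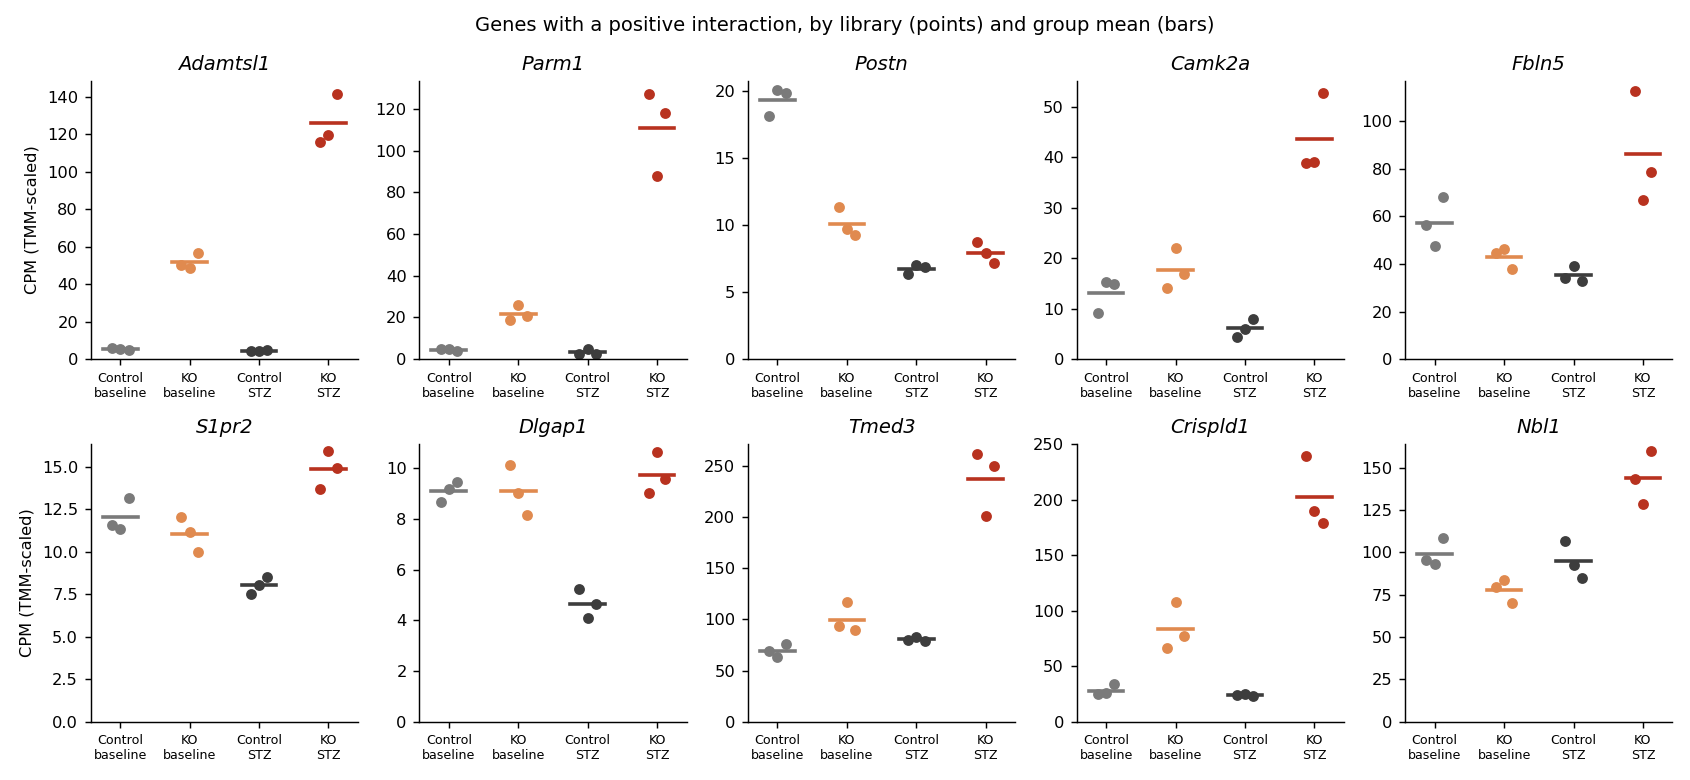
Each panel plots 1 gene's TMM-scaled CPM (y axis, linear, from 0) in the 3 libraries of each of the 4 groups, with the group mean as a bar. Adamtsl1, which alone passed the test, runs from 116 to 141 CPM in STZ knockouts and from 4.09 to 4.92 CPM in STZ controls.

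The other 8 genes named for a positive interaction did not pass, with adjusted p up to 0.256 (edgeR). Of these, 4 are matrix or secreted proteins. Fbln5 (fibulin-5), needed to assemble elastic fibres, had 56.6, 47.5 and 68.3 CPM in baseline controls and 44.8, 46.4 and 37.8 CPM in baseline knockouts. After STZ it had 34.1, 39.0 and 32.8 CPM in controls and 113, 67.1 and 78.8 CPM in knockouts. Knockouts were thus below controls in every baseline library and above them in every STZ library (interaction 1.71, SE 0.28, adjusted p = 0.163, edgeR). Postn (periostin), a matricellular protein, had 18.2, 20.1 and 19.8 CPM in baseline controls and 11.3, 9.73 and 9.29 CPM in baseline knockouts. After STZ it had 6.37, 7.02 and 6.85 CPM in controls and 8.72, 7.92 and 7.14 CPM in knockouts, a small separation in the opposite direction (interaction 1.17, SE 0.17, adjusted p = 0.0974, edgeR). Postn fell with STZ in controls by 1.52 on the log2 scale (adjusted p = 0.00023, edgeR), and its change in knockouts was -0.35 (adjusted p = 0.169).

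Nbl1, a secreted BMP antagonist also called DAN, had the same crossing pattern. Over all genes tested, 22 (0.163%) had every knockout below every control at baseline and above every control after STZ, and 6 had the reverse. The 3 genes named here were picked for a small interaction p, so their crossing is a description. Its means were 99.0 CPM in baseline controls, 77.8 CPM in baseline knockouts, 94.9 CPM in STZ controls and 144 CPM in STZ knockouts (interaction 0.95, SE 0.17, adjusted p = 0.256, edgeR). Crispld1, a secreted cysteine-rich protein, rose in knockouts in both arms (adjusted p = 0.00321 and 3.9e-05, edgeR). Its mean was 28.1 CPM in baseline controls and 83.9 CPM in baseline knockouts, and 24.2 and 203 CPM after STZ (interaction 1.49, SE 0.27, adjusted p = 0.256, edgeR). Tmed3, a cargo adaptor of early secretory vesicles, had means of 69.5, 99.8, 80.5 and 238 CPM in the same order of groups (interaction 1.04, SE 0.19, adjusted p = 0.256).

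The remaining positive genes act in signalling. Camk2a, a calcium and calmodulin-dependent kinase, had 9.06, 15.3 and 14.9 CPM in baseline controls and 14.1, 21.9 and 16.8 CPM in baseline knockouts, which overlap. After STZ it had 4.34, 5.99 and 7.92 CPM in controls and 38.9, 39.1 and 52.7 CPM in knockouts, which are far apart. Its knockout effect was 0.43 at baseline (adjusted p = 0.831, edgeR) and 2.84 after STZ (adjusted p = 0.000495), and the interaction was 2.41 (SE 0.38, adjusted p = 0.163). S1pr2, a receptor for sphingosine 1-phosphate, and Dlgap1, a scaffold protein of synapses, showed knockout and control libraries that overlapped at baseline and separated after STZ. S1pr2 had an interaction of 1.01 (SE 0.16) and Dlgap1 one of 1.07 (SE 0.19). Dlgap1 fell with STZ in controls by 0.97 on the log2 scale (adjusted p = 0.0114, edgeR), while its change in knockouts was 0.10 (adjusted p = 0.752). In 9 of the 10 positive genes the STZ change in controls was below 0, and in 9 it was above 0 in knockouts. The interaction equals the STZ change in knockouts minus that in controls, and the 10 genes were picked on it. These counts are thus in part built into the choice.

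No gene with a negative interaction passed, and the smallest adjusted p was 0.559 (edgeR). Efna1 (ephrin-A1), a membrane ligand of Eph receptors, had 56.3, 64.4 and 56.2 CPM in baseline controls and 59.7, 49.8 and 58.5 CPM in baseline knockouts. In the STZ arm it had 58.8, 57.0 and 62.5 CPM in controls and 21.4, 34.3 and 27.9 CPM in knockouts. The STZ knockouts lay below all other libraries. Its knockout effect was -0.08 at baseline and -1.09 after STZ (interaction -1.02, SE 0.22, adjusted p = 0.559, edgeR).

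Vegfa, the growth factor by which podocytes sustain the glomerular endothelium, had 310, 245 and 239 CPM in baseline controls and 200, 217 and 200 CPM in baseline knockouts. The STZ libraries had 438, 450 and 395 CPM in controls and 229, 235 and 225 CPM in knockouts. Vegfa rose with STZ in controls by 0.69 on the log2 scale (adjusted p = 0.0289, edgeR), and its change in knockouts was 0.16 (adjusted p = 0.527). The difference between those changes, which is the interaction, was -0.54 (SE 0.16, adjusted p = 0.975) and did not pass. Gdnf, a ligand of the RET receptor in kidney development, had means of 6.39, 6.72, 8.32 and 3.60 CPM in baseline controls, baseline knockouts, STZ controls and STZ knockouts (interaction -1.28, SE 0.32).

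Sost (sclerostin), a secreted Wnt inhibitor, had a knockout effect above 0 in both arms (1.67 at baseline and 0.40 after STZ). It rose in knockouts at baseline from a mean of 13.2 CPM to 41.9 CPM (adjusted p = 0.0164, edgeR), and with STZ in controls to 58.3 CPM (adjusted p = 0.00614). The STZ knockouts had 107, 52.2 and 71.6 CPM and overlapped the STZ controls at 61.7, 62.1 and 51.1 CPM (interaction -1.27, SE 0.36, adjusted p = 0.975). Dock8, an exchange factor for CDC42, had a mean of 122 CPM in baseline controls, 95.6 CPM in baseline knockouts, 125 CPM in STZ controls and 69.4 CPM in STZ knockouts (interaction -0.49, SE 0.15). Skil, a repressor of SMAD signalling with a DACH-like domain, had an interaction of -0.93 (SE 0.28). Piga, of GPI anchor synthesis, had an interaction of -1.09, Gtf2h2, of transcription and DNA repair, one of -0.85 and Ubox5, a ubiquitin ligase, one of -0.61. None of them passed the test.

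**Figure D2:**
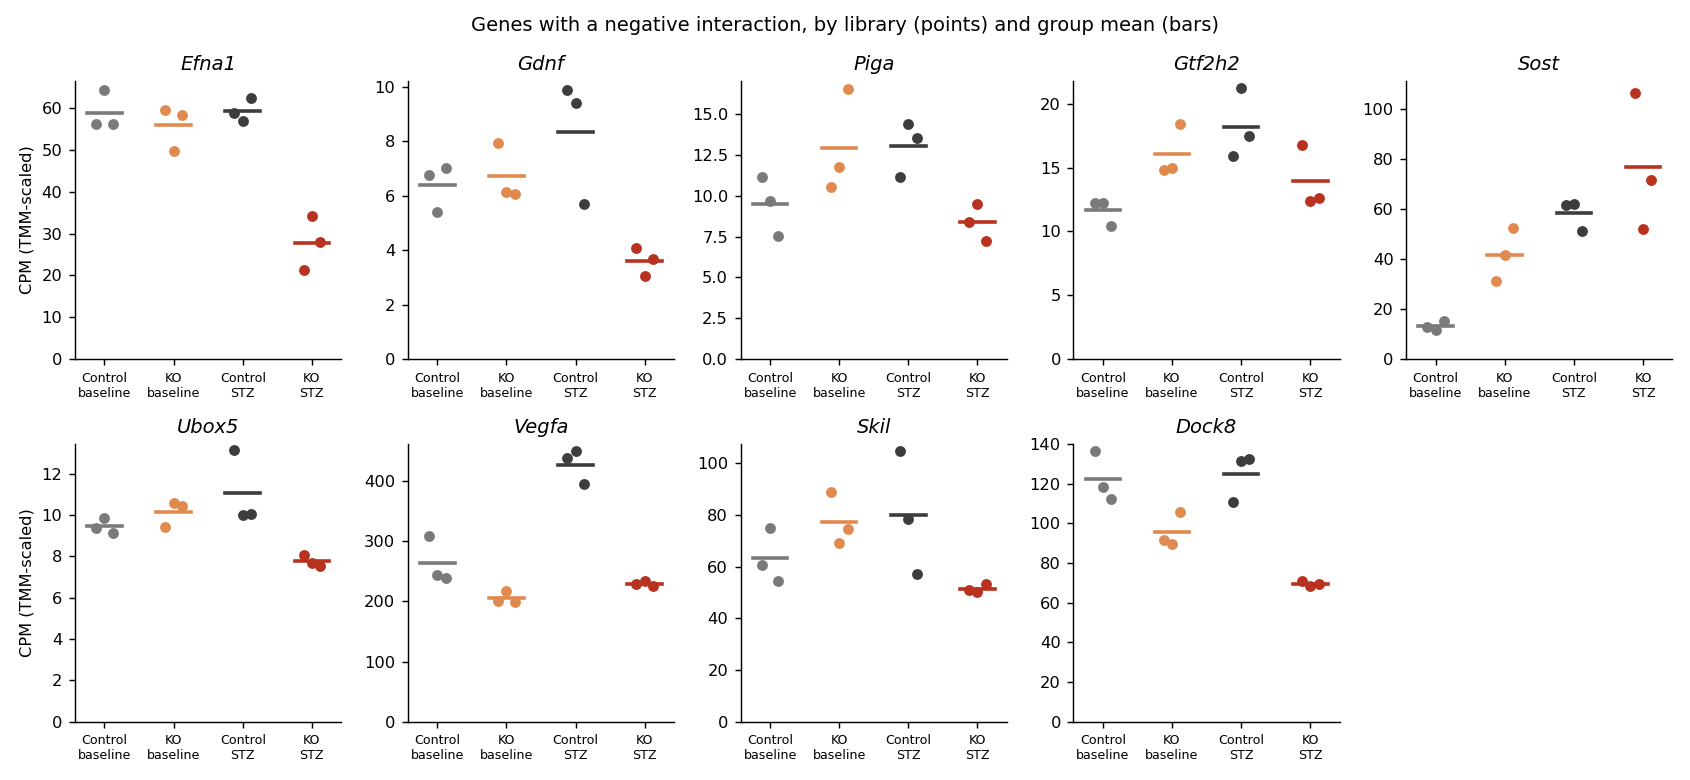
Each panel plots 1 gene's TMM-scaled CPM (y axis, linear, from 0) in the 3 libraries of each of the 4 groups, with the group mean as a bar. Vegfa lies between 395 and 450 CPM in the STZ controls and between 225 and 235 CPM in the STZ knockouts.

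Nell2, a secreted protein with thrombospondin-like repeats, and Paxip1, which encodes PTIP of the histone H3K4 methyltransferase complex, were examined because of their link to DACH1. Nell2 had 395, 147 and 213 CPM in baseline controls and 380, 331 and 263 CPM in baseline knockouts. In the STZ arm it had 371, 200 and 186 CPM in controls and 594, 633 and 539 CPM in knockouts. The groups overlapped at baseline and were apart after STZ, but the interaction of 0.86 (SE 0.49, adjusted p = 0.975, edgeR) did not pass. Paxip1 had an interaction of -0.33 (SE 0.22, adjusted p = 0.975).

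Genes were then chosen by their knockout effect averaged over the arms, which does not use the difference between them. A gene can still pass through an effect in 1 arm, as Camk2a did with 0.43 at baseline and 2.84 after STZ. The choice is thus not wholly independent of the interaction where the spread differs between arms. In the averaged contrast 244 genes rose in knockouts (1.81% of the genes tested) and 175 fell (1.30%). Of the 244 that rose, 220 had a larger effect after STZ (90.2%), against 3171 of the 6832 genes that were higher in knockouts on average at any p (46.4%). The median interaction of the 244 genes was 0.40 log2, with a median standard error of 0.25 per gene. Their median knockout effect was 0.56 at baseline and 0.98 after STZ. The effect was larger after STZ by over 1 log2 in 37 of them and smaller by that much in 1, against 92 and 312 of the 6832. At an unadjusted p under 0.05 for the interaction, 85 were larger and 1 smaller, against 256 and 43 of the 6832. These are descriptions, since genes of 1 library are not independent and only Adamtsl1 among them passed on its own. None of the 25 proximal tubule genes tested, whose median interaction was -1.22, was among the 244, which are 1.81% of all genes. At that share few or none of 25 genes would be among them, so no conclusion is drawn from the count. The part of tubule genes in the values of the 6832 was not tested.

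The means of these 244 genes were 4.58, 4.50 and 4.68 log2 CPM in baseline controls and 4.71, 4.73 and 4.70 log2 CPM in STZ controls. They were 5.45, 5.48 and 5.45 log2 CPM in baseline knockouts and 6.10, 6.07 and 6.17 log2 CPM in STZ knockouts. The libraries given STZ lay above the baseline libraries with no overlap in both genotypes, by a wider margin in knockouts. The median change with STZ was 0.09 in controls and 0.56 in knockouts. With the mean of the podocyte markers as a covariate, 64 genes rose on average, and 51 of these had the larger effect after STZ (median 0.38). Of the 29 markers in that mean, 8 were among the genes that fell on average and 3 among those that rose. The covariate is thus not independent of the knockout.

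The genes that fell divided more evenly. Of the 175, 92 had a larger effect after STZ and 83 a smaller one, with a median of 0.02 in the direction of the knockout effect. The larger share, 52.6%, compares with 3764 of the 6643 genes lower in knockouts at any p (56.7%). Without the second baseline control it was 50 of 152 genes, and without the first baseline knockout 71 of 190. Their median knockout effect was -0.70 at baseline and -0.75 after STZ. Their library means were 5.91, 5.59 and 5.82 log2 CPM in baseline controls, 4.95, 4.86 and 4.79 in baseline knockouts, 5.88, 6.02 and 5.89 in STZ controls, against 4.95, 5.00 and 5.04 in STZ knockouts. Among genes called at baseline, 40 were higher in knockouts (0.297%) and 39 lower (0.289%). This choice uses the baseline libraries that also enter the interaction, so its direction is not independent. Of the 40, 32 had the larger effect after STZ (80%), against 46.4% of genes higher in knockouts on average at any p. Of the 39, 13 did (33.3%), against 56.7% of genes lower in knockouts on average.

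**Figure D3:**
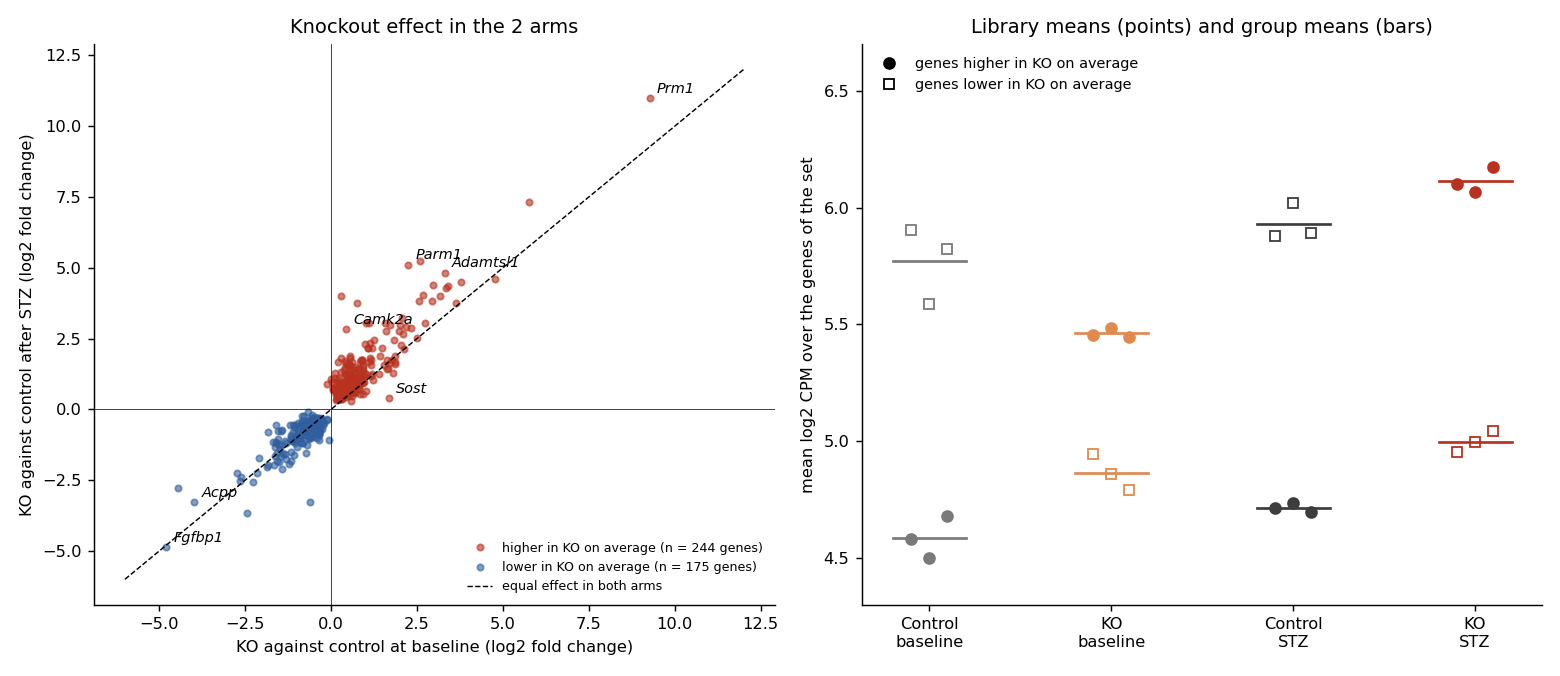
Left, each point is 1 gene called for the average knockout effect, with its log2 fold change at baseline (x axis) and after STZ (y axis), and the dashed line marks equal effects. Right, the mean log2 CPM of each set in every library, with group means as bars; the raised genes lie between 5.45 and 5.48 in baseline knockouts and between 6.07 and 6.17 in STZ knockouts. The position of Prm1 rests on control libraries with at most 0.0867 CPM.

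The genes with the largest average rise are given next, and apart from Adamtsl1 none passed the interaction test. Hpgds, a prostaglandin D synthase, had means of 0.641 and 17.6 CPM in baseline controls and knockouts and of 1.56 and 38.2 CPM after STZ, with an interaction of -0.16 (SE 0.64). Arhgap20, a GTPase-activating protein, had means of 2.77, 37.9, 3.06 and 68.2 CPM in baseline controls, baseline knockouts, STZ controls and STZ knockouts (interaction 0.71, SE 0.67). Ctxn3, a small membrane protein, had an interaction of 2.65 (SE 0.98, adjusted p = 0.975, edgeR) at a mean of at most 8.34 CPM. Prm1, a sperm chromatin protein, had 32.4 to 38.5 CPM in baseline knockouts and 46.8 to 60.0 CPM in STZ knockouts. Its fold change is not given because its controls had at most 0.0867 CPM. The source of these reads was not tested.

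Among the genes most lowered, Fgfbp1, which releases FGF from matrix, had means of 61.7 and 2.21 CPM in baseline controls and knockouts and of 49.5 and 1.71 CPM after STZ (interaction -0.06, SE 0.94). Acpp, a phosphatase that makes adenosine, had means of 262 and 16.7 CPM at baseline and of 350 and 36.1 CPM after STZ (interaction 0.70, SE 0.59). Slc26a7, an anion exchanger, had an interaction of 0.11 (SE 0.37), Opcml one of -1.23 (SE 1.03) and R3hdml one of 1.68 (SE 1.36). None of these 5 passed.

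Gene lists of cell types and pathways were read by their counts and medians, beside a median of -0.03 over all genes tested. Of all genes tested, 44.9% had an interaction above 0 and 55.1% one below 0. Of 41 lists, 21 had a median above 0, and the ADAMTS list alone held a gene that passed, Adamtsl1. The list of interstitial and mesangial matrix genes, which holds the fibrillar collagens, fibronectin and tenascin, had a median interaction of 0.65. All 18 of its tested genes were positive, against 44.9% of all genes, and 8 were positive at an unadjusted p under 0.05, against 2.72%, but none passed. Its median knockout effect was -0.08 at baseline and 0.64 after STZ, and its median STZ change was -0.67 in controls and 0.01 in knockouts. The list mean was 5.69, 6.25 and 6.32 log2 CPM in baseline controls, 5.91, 6.16 and 6.11 in baseline knockouts, 5.65, 5.57 and 5.28 in STZ controls, against 6.06, 6.28 and 6.10 in STZ knockouts. The STZ controls were the low group.

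Fn1 (fibronectin), which cells assemble into fibrils, had 17.9, 23.8 and 24.4 CPM in baseline controls and 106, 68.9 and 89.1 CPM in baseline knockouts. The STZ libraries had 29.6, 22.2 and 16.9 CPM in controls and 186, 154 and 196 CPM in knockouts. Knockouts were above controls in both arms and highest after STZ (interaction 0.97, SE 0.31, adjusted p = 0.975, edgeR). Tnc (tenascin C), a matrix protein of tissue repair, had a knockout effect of -0.28 at baseline and 0.82 after STZ. Col6a1, a chain of the beaded collagen VI, had one of -0.42 at baseline and 0.88 after STZ. Fibroblast markers were added after values were seen, and 7 of the 12 were tested. Their median interaction was 0.36 and 6 were positive, against 44.9% of all genes. Dcn is in both this list and the matrix list, so the lists are not separate. The part of such cells in the matrix values was not tested.

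The fibulin and elastic fibre list had a median of 0.67, with 10 of 12 genes positive (44.9% of all genes) and 3 of them at an unadjusted p under 0.05 (2.72%). Beside Fbln5, Lox, which cross-links elastin and collagen, had a knockout effect of -0.22 at baseline and 1.31 after STZ. Mfap2, a microfibril protein, had one of -0.11 at baseline and 1.20 after STZ. Fbn1 (fibrillin-1) had an interaction of 0.65 (SE 0.32). Without the third baseline control, whose list mean of 5.58 log2 CPM stood above the other baseline controls at 4.98 and 4.94, the list's median was 0.39. Basement membrane collagens and laminins had a median of 0.20 (0.022 to 0.38 over the alternatives, lowest without the second STZ knockout), with 13 of 16 genes positive. Lamb1 (laminin beta 1) had 0.41 (SE 0.16).

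**Figure D4:**
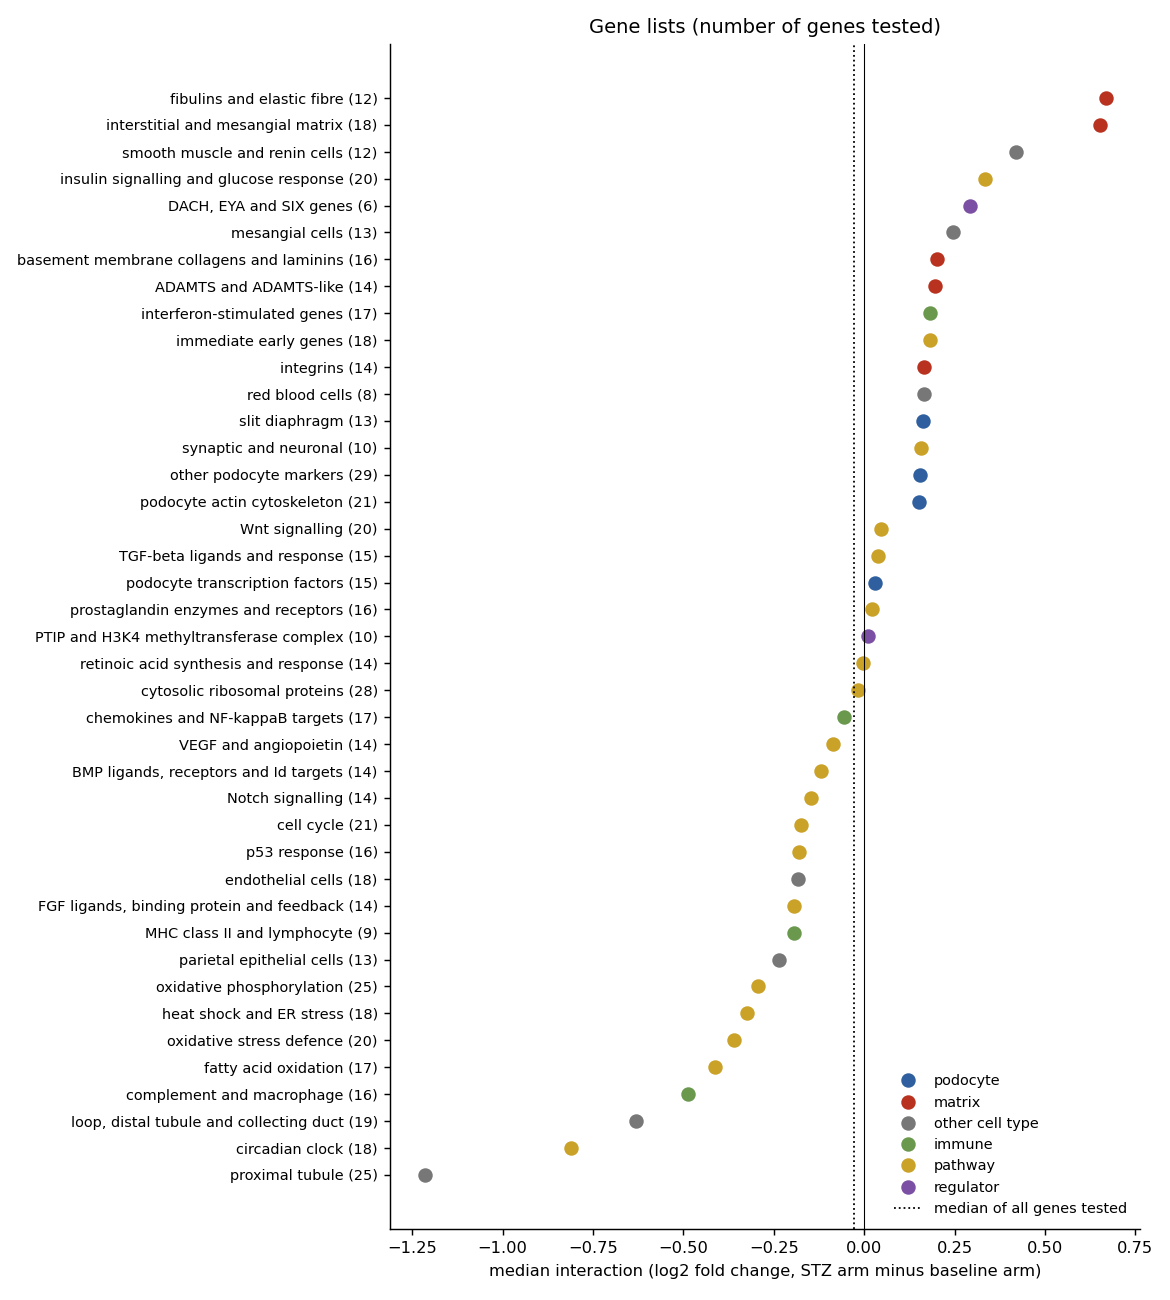
Each point is the median interaction (x axis, log2) of 1 gene list, with the number of genes tested in brackets and the kind of list in colour; the dotted line marks the median of all genes tested, -0.03. The lists run from proximal tubule at -1.22 to fibulins and elastic fibre at 0.67.

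Smooth muscle and renin cell genes had a median of 0.42, with all 12 positive (44.9% of all genes) and 5 of them at an unadjusted p under 0.05 (2.72%). Their median knockout effect was -0.32 at baseline and 0.05 after STZ. The list mean was 6.13, 5.95 and 6.18 log2 CPM in baseline controls and 5.82, 5.50 and 5.69 in baseline knockouts. It was 5.83, 5.68 and 5.72 in STZ controls. The STZ knockouts, at 6.05, 5.82 and 6.33, overlapped the controls of both arms. Tagln (transgelin), an actin-binding protein of smooth muscle, had 64.8, 64.4 and 138 CPM in baseline controls and 204, 91.2 and 157 CPM in baseline knockouts. In the STZ arm it had 61.9, 65.9 and 66.8 CPM in controls and 733, 339 and 1583 CPM in knockouts. The STZ knockouts were the highest libraries but spread widely (interaction 3.01, SE 0.72, adjusted p = 0.804, edgeR). Acta2 (smooth muscle actin), Rgs5 of pericytes and Akr1b7 of renin cells had interactions of 0.78, 0.96 and 1.41. The list's defining smooth muscle gene Myh11 had 0.38 (SE 0.35).

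Podocyte genes gave small medians, at 0.16 for the slit diaphragm, 0.15 for the actin cytoskeleton, 0.03 for transcription factors and 0.15 for other podocyte markers. Over the alternatives these ran from 0.046 to 0.28, 0.028 to 0.20, -0.16 to 0.25 and -0.12 to 0.26, so the last pair of lists changed sign. The mean of the other podocyte markers was 8.93, 8.54 and 8.82 log2 CPM in baseline controls, 8.43, 8.43 and 8.32 in baseline knockouts, 8.95, 9.15 and 8.89 in STZ controls, against 8.79, 8.86 and 8.83 in STZ knockouts. Podocyte markers were thus lowest in the baseline knockouts, and the part of this in the interaction was not tested beyond the fit with their mean as a covariate. Cdkn1c, a cell cycle inhibitor of mature podocytes, had means of 881, 301, 1185 and 695 CPM in baseline controls, baseline knockouts, STZ controls and STZ knockouts (interaction 0.78, SE 0.26). Rab3b, a vesicle GTPase, had an interaction of 1.47 (SE 0.45) and Clic3, an intracellular chloride channel protein, one of 0.79 (SE 0.27). In the slit diaphragm list, Nck2, an adaptor that binds nephrin, had 0.34 (SE 0.12) and Trpc6, a calcium channel, 0.39 (SE 0.16). None passed.

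The lowest median was that of the proximal tubule, at -1.22, with all 25 genes negative (55.1% of all genes) and none at an unadjusted p under 0.05 (0.950%). Over the alternatives the median ran from -1.85 to 0.12, the highest with the list's own mean as covariate. Its list mean was 5.59, 7.87 and 8.99 log2 CPM in baseline knockouts, 6.25, 7.19 and 6.83 in baseline controls, 6.09, 6.95 and 8.23 in controls given STZ, and 8.10, 6.41 and 6.44 in knockouts given STZ. Libraries of 1 group thus differed by more than the groups did. Lists whose genes are abundant in tubule were also negative, at -0.63 for loop, distal tubule and collecting duct, -0.41 for fatty acid oxidation and -0.29 for oxidative phosphorylation. When the mean of the tubule list entered the fit as a covariate, the interaction of Adamtsl1 was 1.55 (adjusted p = 0.0553, edgeR), and 289 of 330 genes that rose on average had the larger effect after STZ.

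Circadian clock genes had a median of -0.81, with 13 of 18 negative (55.1% of all genes) and 2 of them at an unadjusted p under 0.05 (0.950%). Over the alternatives the median ran from -0.98 to -0.35, nearest 0 with voom and, at -0.37, without the first baseline knockout. Tef, a clock-driven transcription factor, had 236, 224 and 156 CPM in STZ controls and 98.1, 125 and 152 CPM in STZ knockouts (interaction -0.90, SE 0.32). Bhlhe40, a repressor in the clock loop, had an interaction of -1.52 (SE 0.64). The list mean was 5.48, 5.29 and 4.68 log2 CPM in STZ controls, against 4.46, 4.83 and 4.79 in STZ knockouts, so the groups overlapped. The hour of collection is not given in the labels, and its part in these values was not tested.

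**Figure D5:**
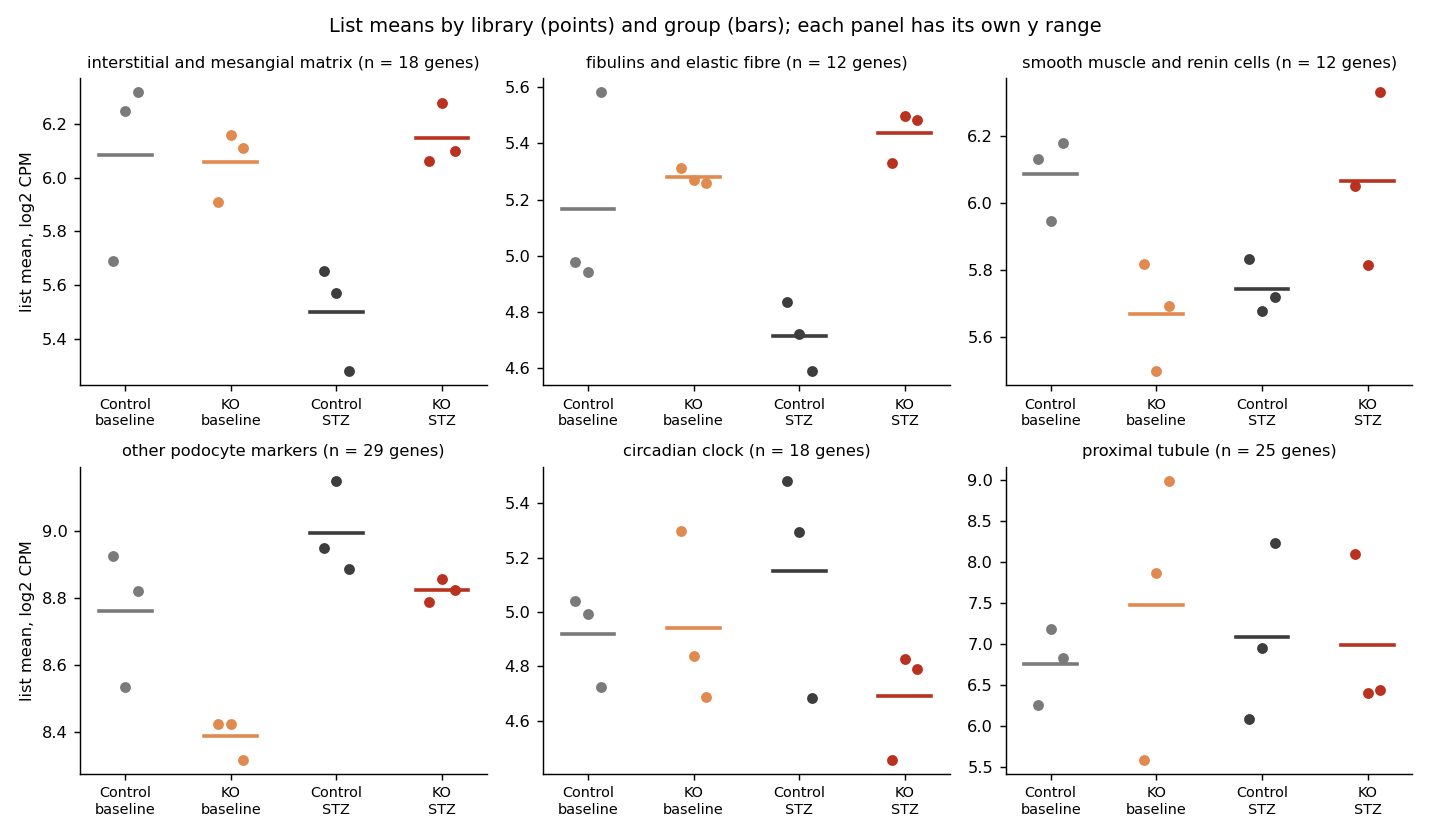
Each panel plots the mean log2 CPM of 1 gene list (y axis, its own range) in the 3 libraries of each of the 4 groups, with group means as bars. The matrix list lies between 5.28 and 5.65 in STZ controls and between 6.06 and 6.28 in STZ knockouts, and the proximal tubule list spreads from 5.59 to 8.99 within the baseline knockouts.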

How the data were processed

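RNA was sequenced from glomeruli isolated with magnetic beads, per the labels' protocols. The authors deposited 1 table of estimated counts per library, not scaled to depth, with 10.5% to 11.5% of values ending in 0.5. BWA and mm10 appear, with no version or role, per the submitters' processing notes; the counting tool is not given in the sources used here. Counts were rounded to whole numbers, and 18 blank values were taken as 0. Gene positions came from RefSeq (GRCm38.p6), which matched 99.8% of the genes. Pairs of replicates differed beyond sampling noise, so all 12 libraries were used.

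All 12 libraries were fitted with 1 coefficient per group in R 4.3.3 with the quasi-likelihood test of edgeR 4.0.16 (limma 3.58.1 for voom) after filterByExpr, which kept all 13475 genes, and TMM scaling, with 8 residual degrees of freedom and Benjamini-Hochberg adjustment over all genes at 0.05. The average knockout effect came from the same fit. CPM are TMM-scaled, and log2 CPM use a prior count of 2. Depth limits the baseline arm more. The p-values set each difference against the spread between mice of a group.

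Named genes were Dach1, Nell2 and Paxip1, then the 10 positive and 10 negative genes that passed or, to fill up, had the smallest p, with a mean of at least 1 CPM in a group (1 clone-named symbol was skipped, and 1 negative gene is not reported here), the 5 largest average effects in each direction, and up to 4 genes of smallest p per list. The genes and lists were chosen with earlier results of these data known. Myh11 and the fibroblast list were added after values were seen. Alternatives were relative log expression factors, DESeq2 1.42.0, limma voom with sample weights, other filters, rounding and blank handling, thinning to the shallowest library, covariates for sex, proximal tubule and podocyte markers, and leaving out each library. The scripts were tested on simulated data.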

Additional observations from a re-analysis of the deposited data

Results flagged for a closer look

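For Adamtsl1 the knockout effect differed between the arms by the test of the difference itself, an interaction of 1.52 log2. The call held in 7 of 23 alternatives and in none of the 12 fits without 1 library. Among the 7, the fit without a filter repeated the main fit, since the default filter had kept all 13475 genes. The filter at a mean of 1 CPM and leaving out genes with a blank value each kept 13471 genes. Rounding down gave the same 1.52 log2. These fits could hardly differ from the main one. In 3 further genes every knockout library was below every control library at baseline and above every control library after STZ. Over all genes tested 22 (0.163%) did so. The 3, chosen for a small interaction p, were Postn (interaction 1.17), Fbln5 (1.71) and Nbl1 (0.95). The interaction test was run for them and did not pass at an adjusted p under 0.05 (edgeR). Within arms, the knockout effect passed in only 1 arm for each gene. For Postn the adjusted p was 0.00417 at baseline and 0.534 after STZ (edgeR). In the same order it was 0.73 and 0.00666 for Fbln5, and 0.475 and 0.0297 for Nbl1. The fall at baseline thus passed for Postn alone, and the rise after STZ for Fbln5 and Nbl1.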

How the results depend on the processing

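The number of genes called for the interaction, 1 as reported, was 2 with relative log expression factors, 2 after thinning to the shallowest library and 31 with DESeq2. It was 0 with limma voom and 0 with the proximal tubule, sex or podocyte marker mean as covariate. Leaving out 1 library gave 0 to 2. Adamtsl1 was 1.67 log2 (adjusted p = 0.0535) with voom, 1.53 (0.126) with sex and 1.57 (0.198) with the podocyte mean as covariate, no smaller than the 1.52 reported. The number called for the average knockout effect, 419 as reported, was 712 with DESeq2, 984 with voom and 78 with the podocyte covariate (an alternative added after seeing the data), and 299 to 439 without 1 library. The median interaction of the genes that rose, 0.40, was 0.33 with DESeq2, 0.25 with voom, 0.33 with the proximal tubule covariate and 0.37 to 0.49 without 1 library. That of the genes that fell was 0.21 with the podocyte covariate, where only 14 genes fell against 175 as reported. It was -0.13 to 0.10 without 1 library. The median of both together was 0.079 with voom and 0.15 to 0.30 without 1 library. The genes were chosen anew in each fit. Directions reversed in 6 genes, none of which passed the interaction test. Hpgds was 0.43 with voom, 0.091 with the podocyte covariate and -0.41 to 0.36 without 1 library. With the podocyte covariate Dach1 was -0.19 and Slc26a7 -0.23. Without 1 library Dach1 ran from -0.12 to 0.27, Slc26a7 from -0.26 to 0.33, Fgfbp1 from -0.77 to 0.55, R3hdml from -0.92 to 2.18 and Acpp from -0.060 to 0.98. Of 758 gene values under alternatives, 709 kept their direction and their side of the threshold. Only Adamtsl1 passed in the main fit, and some alternatives nearly repeat that fit, so most values had little room to change side. Adamtsl1 itself lost its call in 16 of 23 alternatives. The number of lists with a positive median was 15 to 26 without 1 library. The cause of these changes was not tested. No paired analysis was possible because the 12 mice differ, the replicate numbers are only in deposit order, and the labels tie no mouse of 1 group to a mouse of another.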

Other observations

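DESeq2 called 31 genes for the interaction, 30 positive and 1 negative (Efna1), and their adjusted p by edgeR ran from 0.044 to 0.975. The 5 genes described here were chosen after their values were seen, so they show no theme of the 31, and by edgeR none of them passed. Aebp1, a collagen-binding protein, had an interaction of 1.78 by DESeq2 (adjusted p = 0.00539), and its adjusted p by edgeR was 0.559. Cdh11, a cadherin of mesenchymal cells, had 1.54 (adjusted p = 0.0142 by DESeq2, 0.559 by edgeR). Pcolce, which enhances procollagen processing, had 0.87 (adjusted p = 0.0258 by DESeq2, 0.632 by edgeR). Tnxb (tenascin X) had 1.08 (adjusted p = 0.0413 by DESeq2, 0.632 by edgeR). Cst3 (cystatin C), a secreted protease inhibitor, had 1.00 (adjusted p = 0.0111 by DESeq2, 0.559 by edgeR).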
